A study of Rattus norvegicus with 2 samples.

Results

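Heat shock proteins and chaperones were examined in the whole blood of rats given lavender oil (LO). Genes were taken by name, with a symbol made of Hspa, Hspb, Hspd, Hspe, Hsph, Dnaja, Dnajb, Dnajc or Cct and a digit, or beginning with Hsp90, together with Tcp1, Hsf1 and Hsf2. A gene entered when the RefSeq accession of a probe led to such a symbol. This gave 51 genes on 73 probes, out of 8898 genes with a symbol and 41009 probes on the array. No probe was paired with Hspa9, Hspa1b, Dnajb1, Hsf1, Cct7 or Cct8, which were not analysed here. Blood RNA of 6 male Fischer (F334) rats, 7 weeks old, given LO at 5 mg/kg in 10% ethanol into the stomach once a day for 13 days was combined into 1 pool. The RNA of 6 control rats that received the 10% ethanol alone (0 mg/kg LO) formed the other pool, and both groups were sampled on day 14. One label field gives Wistar in place of F334, and the labels name the portal vein beside the heart as the site of bleeding. On array 1 LO was labelled with Cy5 and control with Cy3, and on array 2 the labels of both pools were exchanged. The 2 arrays therefore repeat 1 comparison by a technical dye swap. The pools hold no spread between rats, and no test between the conditions was made.

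Chaperones bind unfolded or half-made proteins and keep them from clumping until they fold. Hsp70 proteins do this in cycles of ATP hydrolysis that J-domain proteins (DnaJ) start, Hsp90 acts on kinases and steroid receptors late in folding, and the chaperonins Hsp60 and CCT/TRiC enclose a protein in a chamber. Under heat or other stress the heat shock factors bind the heat shock element, a repeat of short inverted units, and switch on many of these genes, whereas unfolded proteins in the endoplasmic reticulum act through the ER stress element. Red cells and platelets have no nucleus, so blood RNA for these genes comes from white cells and from transcripts left in young red cells and platelets.

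Most chaperone probes were detected in rat blood, and those detected in every channel differed little between the LO and control pools. Of the 73 probes, 49 (67.1%) were rated well above background by the Feature Extraction software in all 4 channels, that is, for both pools on both arrays. The share was 37.5% for all probes and 49.2% for all probes with a gene symbol. These 49 probes stand for 34 genes and are called measured here. Another 15 probes were above background in no channel and 9 in 1 to 3 channels. The methods name a p under 0.01 and a dye ratio that turns round between the arrays. For the genes taken into the pathway analysis they also name fold limits. The selection by the fold limits is described further below, after the section on the dyes. With the p under 0.01 required here on each array in 1 LO/control direction, 0 of 73 probes came out up-regulated and 0 down-regulated, where 0.00975% and 0.0122% of all probes did (0.0219% in either direction). At a p under 0.05 the counts were also 0 and 0. The p is that of the software's error model of each spot, called the spot p here, and says nothing of the spread between rats. On array 1 alone 5 of the 73 probes had a spot p under 0.01, against 5.95% of all probes, and on array 2 alone 7 had, against 6.29%. Among the measured probes, the mean LO/control log2 ratio of both arrays, called the LO part, ranged from -0.26 (0.834-fold) to 0.37 (1.29-fold). Its median was -0.015, against -0.0026 for the 15371 measured probes of the whole array. The LO part passed 1.5-fold in 0 of the 49 probes and in 0.124% of all measured probes, 0.026% with LO higher and 0.0976% with LO lower. It stayed within 1.1-fold in 44 of the 49 (89.8%), against 79.3% of all measured probes. The number of arrays limits the precision for these pools, and with 1 pool for each condition the arrays say nothing of other rats.

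**Figure D1:**
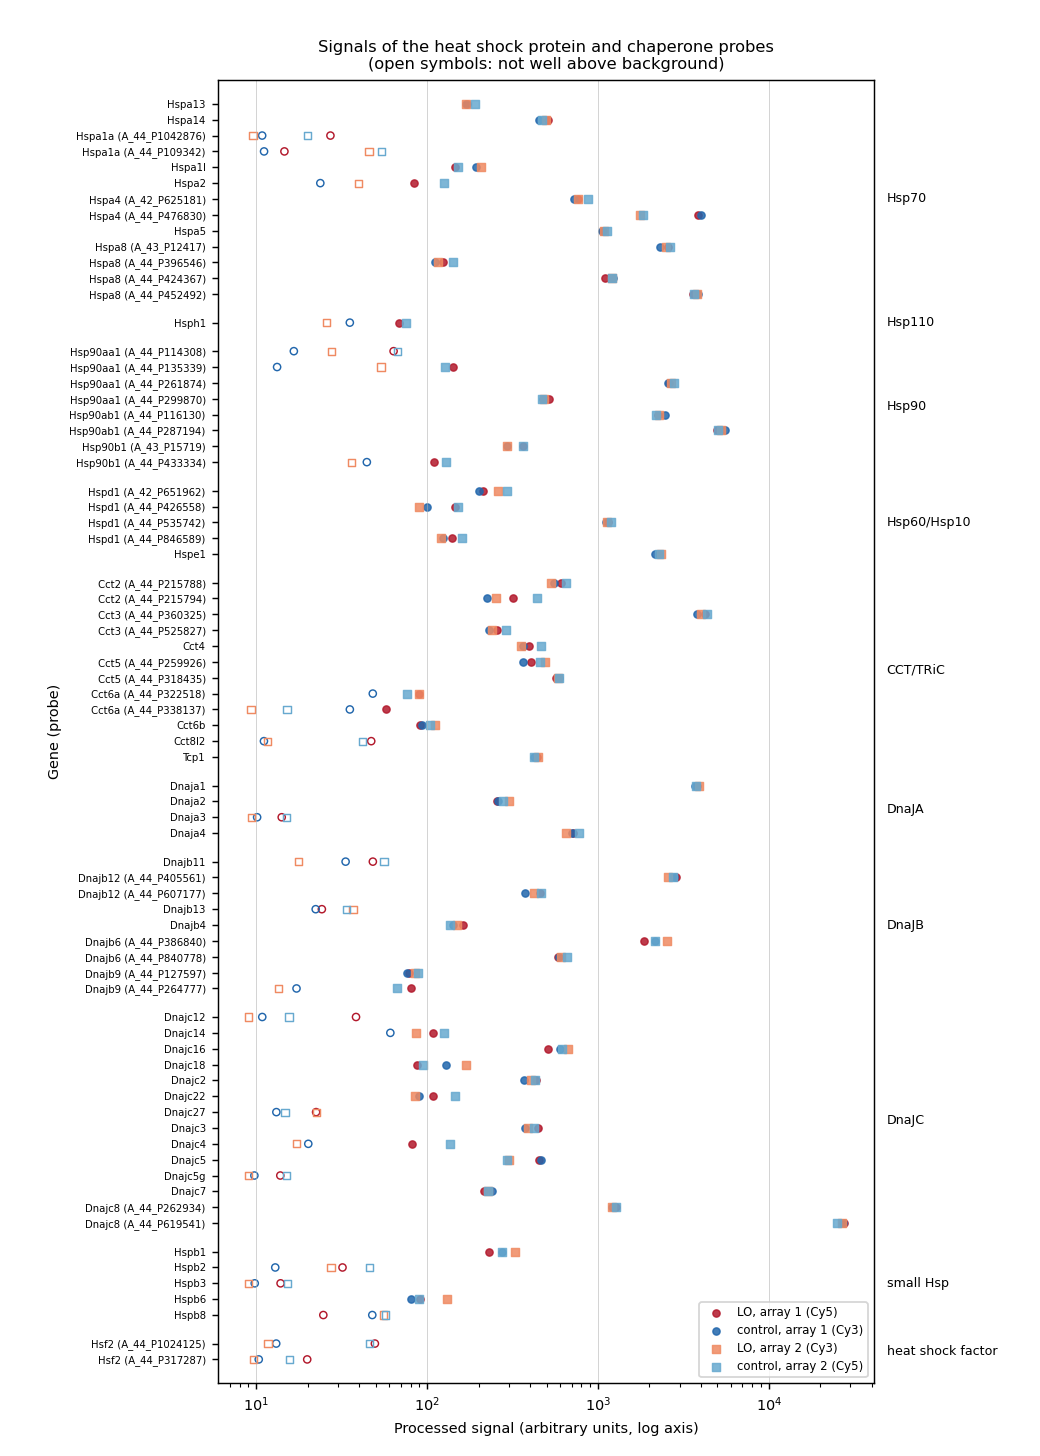
Processed signal of each of the 73 probes (arbitrary units, log axis) by gene and family, with red and orange symbols for the LO pool and blue symbols for the control pool; circles are array 1 and squares array 2, and open symbols were not well above background. Where all 4 symbols of a probe are filled they mostly lie close together, with exceptions such as Hspa4 at A_44_P476830 and Cct2 at A_44_P215794. Where some are open they often lie farther apart. Signals of different probes depend on the probe and are not to be compared.

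Blood markers were read as a check of the tissue. Probes were paired with 4 of 5 listed platelet genes (Pf4, Ppbp, Gp9 and Gp1bb), 4 of 5 neutrophil genes (S100a8, S100a9, Mmp8 and Cxcr2), 4 of 5 T cell genes (Cd3d, Cd3g, Cd5 and Cd2), 1 of 4 B cell genes (Cd79b) and 3 of 7 red cell genes (Hbb, Alas2 and Slc4a1), and all of these were measured. The heart muscle genes Myh6 and Nppa were above background in no channel, although the blood was drawn from the heart, while 1 of 2 Actc1 probes was measured and Tnnt2 was above background in 2 channels. Of 7 probes for 4 liver genes, 1 was measured, an Alb probe. The LO part ran from 0.05 to 0.12 over the neutrophil probes, from -0.22 to 0.11 over the T cell probes, from -0.01 to 0.07 over the platelet probes and from -0.09 to 0.0012 over the red cell probes. The B cell probe had 0.10. All 4 neutrophil probes were above 0, with a median of 0.11, where 48.7% of all measured probes were above 0. Only 2 of the 4 pointed to the LO pool on both arrays. S100a9 gave log2 ratios of -0.04 and 0.15 on arrays 1 and 2, and Mmp8 gave 0.41 and -0.16. No test set these marker values against those of the chaperones, and their part in the chaperone values was not tested. In pooled blood, fewer cells of a type and less RNA per cell cannot be told apart.

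A minority of the promoters of these genes held the heat shock element or the ER stress element. RefSeq promoters of the GRCr8 build, from 250 bases before to 50 bases after the start of the gene, were matched for 43 of the 51 genes. The heat shock element was searched on both strands as GAA, any 2 bases, TTC, any 2 bases and GAA. It was present in 6 of these 43 promoters, those of Hspa8, Hsph1, Hspd1, Hspe1, Dnaja1 and Cct4, against 267 (0.798%) of all 33469 promoters. The ER stress element, searched on both strands as CCAAT, any 9 bases and CCACG, was present in 3 (6.98%), those of Hspa5, Hsp90b1 and Dnajc3, against 22 (0.0657%) of all. Windows that lie before the gene start are shown because the values of these genes follow, and for Hspa8 and Hsp90b1, with 2 matches each, the one nearest the start is shown. Capitals mark the fixed letters of the element in each window, read 5′ to 3′ on the strand of the gene.
Hspa8, chr8:50080439-50080491, plus strand: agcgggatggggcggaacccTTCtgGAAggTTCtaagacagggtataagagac
Hsph1, chr12:10427312-10427364, plus strand: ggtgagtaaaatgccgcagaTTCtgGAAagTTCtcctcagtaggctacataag
Hspe1, chr9:64084242-64084299, plus strand: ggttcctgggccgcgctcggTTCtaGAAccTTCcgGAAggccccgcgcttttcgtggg
Hspa5, chr3:38452953-38453011, plus strand: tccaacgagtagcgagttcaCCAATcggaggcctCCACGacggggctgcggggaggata
Hsp90b1, chr7:23012327-23012385, minus strand: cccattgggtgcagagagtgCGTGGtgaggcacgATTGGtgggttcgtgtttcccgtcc
Dnajc3, chr15:102432514-102432572, plus strand: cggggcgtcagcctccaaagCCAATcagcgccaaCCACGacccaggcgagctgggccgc

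Hspd1 and Hspe1 lie head to head, and the element shown for Hspe1, 65 bases before its start, is the same stretch of chromosome 9 that lies 242 bases before the start of Hspd1 on the other strand. There are 2 overlapping matches in that stretch. In Dnaja1 and Cct4 the match lies after the gene start. Of the 6 genes with a heat shock element, 5 were measured, on 11 probes, and their LO part ran from -0.14 to 0.06 with a median of -0.054 (0.905- to 1.04-fold at the ends). The median of all measured probes was -0.0026. Hspa8 and Hspd1 gave 4 of the 11 probes each, so these genes weigh most in the median. The 3 genes with an ER stress element were each measured by 1 probe, with an LO part from -0.019 to 0.07. A match of letters is not a site of binding, and no match says only that these letters are not in this window.

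Among the Hsp70 genes, Hspa8 (Hsc70), the constitutive Hsp70 of the cytosol, had 4 probes and all were measured. Its probe A_44_P452492 gave 3600 and 3784 for the LO pool on arrays 1 and 2, and 3864 and 3654 for the control pool. The LO/control ratio was thus 0.932 on the first and 1.04 on the second, with a geometric mean of 0.982. The pool with the higher signal changed with the array, and the LO and control values overlapped. Overlap, here and below, sets the signals of both arrays and both dyes side by side. A shift between the arrays therefore enters it, and with 2 technical values for each pool it is no test. Over the 4 probes the geometric mean ran from 0.947 to 1.03. The RefSeq table names 33 pseudogenes after Hspa8, so that its probes may also read near-identical copies.

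Hspa5 (BiP), the Hsp70 of the endoplasmic reticulum and a marker of ER stress, gave 1066 and 1087 for the LO pool and 1051 and 1131 for the control pool. The ratios were 1.01 and 0.961, a mean of 0.987. Hspa13, another Hsp70 of the microsomal fraction, had a mean of 0.949. In both genes the pool with the higher signal changed with the array.

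Both probes of Hspa1a, the Hsp70 gene that heat and other stress induce most sharply, were above background in no channel, so that no fold is given. A_44_P1042876 is printed on 10 spots, of which 8 were not flagged. Over these the signal of the LO pool averaged 27.2 ± 10.0 on array 1 and 9.58 ± 0.38 on array 2 (SD, 8 spots), and that of the control pool 10.8 ± 1.2 on array 1, with a range from 15.3 to 32.9 on array 2. The higher value was in the Cy5 channel on both arrays, and the dye part was above 0 on 8 of 8 spots. These spots are repeats on 1 array and not samples. None of their signals was above background, and on some of them the software's log ratio was 0 on 1 array. Dnaja3, also above background in no channel, gave 14.1 and 15.1 in Cy5 and 10.1 and 9.41 in Cy3. How far such low readings set the count of 8 was not tested. Hspa1a and Hspa1b are near-identical copies, and the probes may read both.

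Hspa14, a ribosome-associated Hsp70 of the cytosol, had the highest LO part of the measured Hsp70 probes, 0.13. It gave 512 and 499 for the LO pool and 451 and 473 for the control pool, ratios of 1.14 and 1.05. The LO pool was higher on both arrays without overlap, and the spot p was 0.381 and 0.716. Hspa4, a nucleotide exchange factor of the Hsp110 group, had 2 measured probes with means of 0.955 and 0.962. The second of these, A_44_P476830, gave 3846 and 1754 for the LO pool on arrays 1 and 2, and 3981 and 1830 for the control pool. This shift of 2.18-fold was larger than in 99.6% of all measured probes, and it was shared by both pools, with ratios of 0.966 and 0.958. Hspa1l, a testis form, gave ratios of 0.747 and 1.37.

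Hsph1 (Hsp105), an exchange factor for Hsp70 induced by heat, was above background in Cy5 only. The LO pool gave 68.5 on array 1, above background, and 25.8 on array 2, and the control pool gave 35.3 and 75.4, the latter above background. Each pool was thus above background on 1 of 2 arrays, in each case in the Cy5 channel. No fold is given, since 1 side of each ratio was not above background.

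The Hsp90 genes showed both patterns side by side. Hsp90ab1, the constitutive cytosolic form, gave 4941 and 5262 for the LO pool and 5502 and 5019 for the control pool at A_44_P287194, with a mean ratio of 0.970. Its other probe had a mean of 0.967, and the dye part of both pointed to Cy3. Hsp90aa1, the inducible cytosolic form, had 2 measured probes with means of 0.981 and 1.06. One of these, A_44_P261874, gave 2601 and 2672 for the LO pool and 2583 and 2798 for the control pool, which overlap.

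The remaining Hsp90aa1 probes were not measured in all channels. At A_44_P135339 the LO pool gave 142 and 53.8 and the control pool 13.2 and 126, and only the Cy5 signals, 142 and 126, were above background. The LO/control ratio was 10.7 and then 0.425, with a spot p of 1.82e-08 and 0.00136. Both ratios, and the geometric mean of 2.13, therefore rest on signals of 13.2 and 53.8 that were not above background, while the 2 measured probes of the same gene had the means given above. A_44_P114308 was above background in no channel. The RefSeq table names 16 pseudogenes after Hsp90aa1 and 23 after Hsp90ab1. Hsp90b1 (Grp94), the Hsp90 of the endoplasmic reticulum, gave 363 and 295 for the LO pool and 295 and 363 for the control pool at its measured probe, so that the Cy5 signal was the higher on both arrays and the LO part was 0.00054.

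The chaperonin of the mitochondrion is built from Hspd1 (Hsp60) with Hspe1 (Hsp10) as its lid. Hspe1 gave 2284 and 2346 for the LO pool and 2163 and 2284 for the control pool, ratios of 1.06 and 1.03 and a mean of 1.04. The LO pool was the higher on both arrays, and its lower signal was at the level of the higher control signal. The 4 probes of Hspd1 were all measured, and their means lay between 0.925 and 0.990. The highest mean was that of A_44_P535742, and the lowest, that of A_44_P846589, came from signals of 139 and 121 for the LO pool and 123 and 159 for the control pool, which overlap. All 5 probes of the Hspd1 and Hspe1 pair had a dye part towards Cy5. The table names 20 pseudogenes after Hspd1.

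CCT/TRiC folds actin and tubulin in the cytosol. Of its 12 probes, 9 were measured, for Tcp1, Cct2, Cct3, Cct4, Cct5 and Cct6b, a testis form. Tcp1 (the alpha subunit) gave 439 and 447 for the LO pool and 422 and 421 for the control pool, a mean ratio of 1.05. The LO values did not overlap the control values, and the spot p was 0.787 and 0.689. Cct4 (delta) gave 394 and 353 against 365 and 466, with a mean of 0.905. Cct3 (gamma) had an LO part of 0.02 and -0.05 at its 2 probes. In Cct5 (epsilon) the 2 probes had means of 1.09 and 0.978, one higher and one lower.

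Cct2 (beta) had the largest dye part of the measured members towards Cy5, at A_44_P215794. The LO pool gave 318 and 251 and the control pool 223 and 441, ratios of 1.42 and 0.570 with a spot p of 0.0365 and 6.19e-04. The Cy5 signal was the higher on both arrays. Its other probe had ratios of 1.11 and 0.817. Cct6a (zeta) was dim at both probes. At A_44_P322518 the LO pool was above background on both arrays, with 89.5 and 89.1, and the control pool on array 2 only, with 48.1 and 76.8. The ratios were 1.86 and 1.16, and the mean of 1.47 rests in part on the control signal of array 1. At its second probe 1 channel was above background and the bound from the background fell under 1, so no fold can be stated. Cct8l2 was above background in no channel.

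The DnaJ proteins were the largest group, with 4 DnaJA genes on 4 probes, 6 DnaJB genes on 9 and 13 DnaJC genes on 14, of which 3, 6 and 9 probes were measured. Dnaja1, the main DnaJ of the cytosol and a partner of Hspa8, gave 3774 and 3902 for the LO pool and 3691 and 3750 for the control pool. Its LO part was 0.04, and the pools did not overlap, although the gap was smaller than the shift of the LO pool between arrays. Dnaja2 had a mean of 1.03 and Dnaja4 a mean of 0.920, while Dnaja3 of the mitochondrion was above background in no channel.

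Dnajb4, a heat-inducible relative of Dnajb1, had the second highest LO part of all measured members at 0.16. It gave 162 and 150 for the LO pool and 141 and 137 for the control pool, ratios of 1.15 and 1.09, and the pools did not overlap. Dnajb6, which holds back protein aggregates, had 2 measured probes with means of 1.01 and 0.954. Dnajb12, in the ER membrane, had means of 0.978 and 1.05. Dnajb9 (ERdj4), an ER stress target, had a measured probe with a mean of 0.997 and a dim one that is taken up with the dye pattern, and Dnajb11 (ERdj3) and Dnajb13 were above background in no channel.

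Dnajc22 had the lowest LO part of the 49 probes, -0.26. The LO pool gave 108 and 84.5 and the control pool 89.8 and 146, with the higher value in Cy5 each time. Its LO part was under that of all but 2.76% of the measured probes of the array. Dnajc3 (p58IPK), an ER protein that restrains the eIF2 kinase PERK, had a mean of 1.05. Dnajc8, with a role in splicing, had means of 1.01 and 1.04 at its 2 probes, and Dnajc5, of secretory vesicles, had 0.997, with a shift of 1.53-fold between the arrays shared by both pools. Dnajc2, Dnajc7 and Dnajc16 had means of 1.05, 0.955 and 0.961. Dnajc18 had the largest dye part towards Cy3, from 87.3 and 169 for the LO pool and 129 and 94.6 for the control pool. Its ratios were 0.678 and 1.78, with a spot p of 0.0799 and 0.00483. Dnajc14 was above background in 3 channels, with the control pool on array 2 only, and gave 108 and 85.6 for the LO pool and 60.9 and 125 for the control pool. The ratio of array 2 was 0.683, and none is given for array 1, where the control signal was not above background. Dnajc12, Dnajc27 and Dnajc5g were above background in no channel.

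Of the small heat shock proteins, which hold unfolded proteins without ATP, Hspb6 (Hsp20) had the highest LO part of all measured members, 0.37. It gave 91.4 and 131 for the LO pool and 80.0 and 90.1 for the control pool, ratios of 1.14 and 1.45 and a mean of 1.29. The LO values did not overlap the control values, the SD of the 2 arrays was 0.25 on the log2 scale, and the spot p was 0.582 and 0.0851. Hspb1 (Hsp27) is printed on 10 spots, 7 of them not flagged, and gave 231 ± 34.7 and 327 ± 54.6 for the LO pool and 273 ± 24.6 and 274 ± 32.0 for the control pool (SD, 7 spots). Its mean ratio was 0.998, and the dye part pointed to Cy3 on 7 of 7 spots. Hspb2, Hspb3 and Hspb8 were above background in no channel, and so were both probes of the heat shock factor Hsf2.

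**Figure D2:**
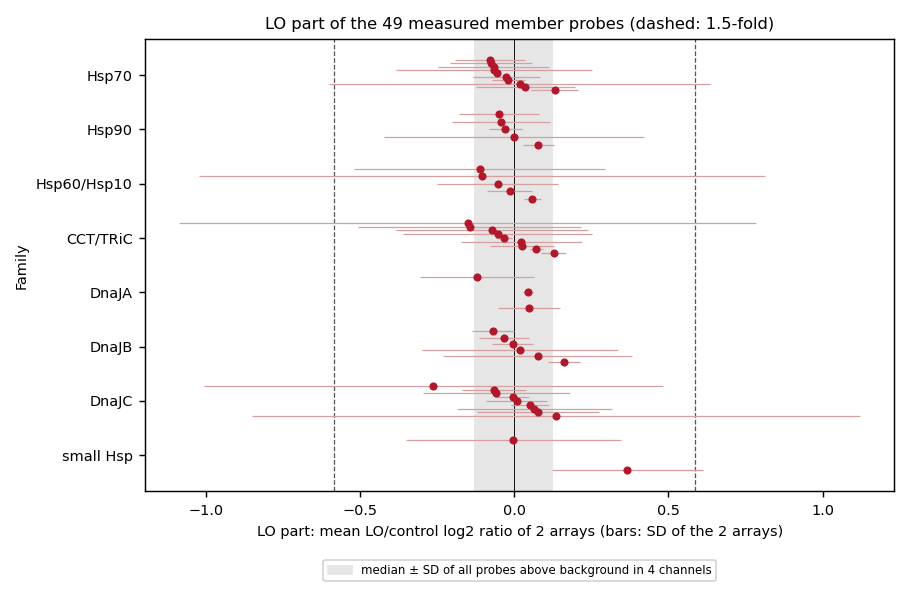
LO part (mean LO/control log2 ratio of both arrays) of the 49 measured probes by family; horizontal bars are the SD of the 2 arrays, the grey band is the median ± SD of all 15371 measured probes, and dashed lines mark 1.5-fold. No point lies beyond 1.5-fold; Hspb6, at 0.37, lies farthest right and Dnajc22, at -0.26, farthest left.

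By family, the median LO part of the measured probes was -0.04 for Hsp70 (10 probes), -0.03 for Hsp90 (5), -0.05 for Hspd1 and Hspe1 (5) and -0.03 for CCT/TRiC (9). It was 0.04 for DnaJA (3), 0.0072 for DnaJB (6) and 0.0076 for DnaJC (9), and the 2 small heat shock protein probes had 0.37 and -0.0026. Over all families 21 probes were above 0 and 28 below, or 42.9% above, against 48.7% of all measured probes. In some probes this sign changed with the scaling, as given in the last section. The LO/control ratio pointed the same way on both arrays in 12 of the 49 probes, 9 (18.4%) towards the LO pool and 3 (6.12%) towards the control pool, against 11.7% and 12.7% of all measured probes. In 37 (75.5%) it pointed to opposite pools, and so it did in 75.6% of all measured probes.

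The ratios of the chaperone probes followed the dye more than the pool. The dye part, which is the LO/control log2 ratio of array 1 less that of array 2, divided by 2 and positive towards Cy5, had an SD of 0.23 over the 49 probes, while the LO part had an SD of 0.10. For all measured probes these were 0.30 and 0.12. Between the arrays the ratios of the 49 probes correlated at -0.74 (Pearson's r) and -0.57 (Spearman's rho), and those of all measured probes at -0.70 and -0.68. These are correlations across probes that share both arrays and both pools, and probes are not replicates. The dye part passed 1.5-fold in 2 measured probes towards Cy5 (Cct2 and Hspd1) and in 1 towards Cy3 (Dnajc18), where 3.27% and 3.22% of all measured probes did (6.49% for either dye).

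With a spot p under 0.01 on each array, 5 of the 73 probes were higher in Cy5 both times and 0 in Cy3, where 1.58% and 1.06% of all probes were (2.64% for either dye). They belong to Hspa2, Hsp90aa1, Hsp90b1, Dnajb9 and Dnajc4. All 5 were above background in Cy5 on both arrays and in Cy3 on neither. Dnajc4 gave 81.5 and 136 in Cy5, for the LO pool on array 1 and the control pool on array 2, and 20.2 and 17.3 in Cy3. Dnajb9 at A_44_P264777 gave 80.5 and 66.8 in Cy5 and 17.2 and 13.4 in Cy3. Hspa2, a testis form of Hsp70, gave 84.3 and 126 in Cy5 and 23.7 and 39.8 in Cy3.

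The second probe of Hsp90b1, A_44_P433334, gave 110 and 128 in Cy5 and 44.4 and 36.1 in Cy3. Together with Hsph1, these were 6 of the 73 member probes above background in Cy5 only, whereas 0 of 73 were above background in Cy3 only. On the whole array 1437 and 1190 of 41009 probes were. In Cy5, 58 and 57 of the 73 probes were above background on arrays 1 and 2, and in Cy3 49 and 51. As shares these were 79.5% and 78.1% in Cy5 and 67.1% and 69.9% in Cy3, while over all probes they were 47.1% and 48.7% in Cy5 and 44.4% and 49.8% in Cy3. Of the 24 probes that were not measured, the dye part was above 0 in 19, below 0 in 2 and exactly 0 in 3. In these 3 the software's log ratio was 0 on both arrays, although the processed signals differed. In some of the 19, such as that of Dnajc12, it was 0 on 1 array, so that the dye part rests on the other array. Over all probes that were not measured the dye part was above 0 in 38.4%. How far the probe, its dimness or the label set this was not tested.

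**Figure D3:**
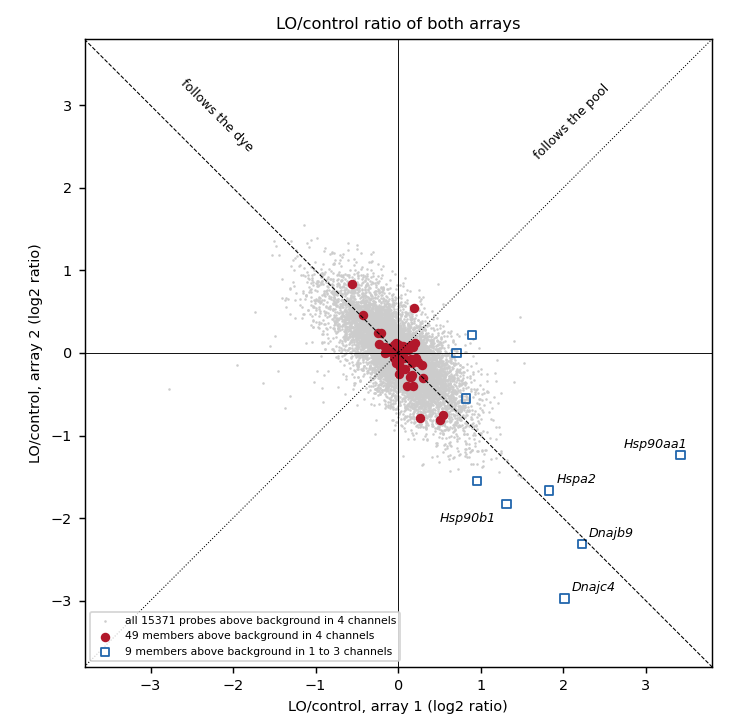
LO/control log2 ratio of array 2 against that of array 1, with all 15371 measured probes in grey, the 49 measured members in red and the 9 members above background in 1 to 3 channels as open squares; the 15 members above background in no channel are left out. The dotted diagonal is where a ratio follows the pool and the dashed one where it follows the dye; the 5 named probes, higher in Cy5 on both arrays, lie at the lower right, with Hsp90aa1 at 3.42 and -1.23.

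Genes with several probes let the parts be set side by side within a gene. In 11 genes more than 1 probe was measured, 26 probes in all. Within a gene the LO part of the probes differed by 0.09 at the median, from 0.0056 in Hsp90ab1 to 0.16 in Cct5, and it had opposite signs among the probes of 6 of the 11 genes. The dye part differed by 0.12 at the median and by up to 0.60, in Hspd1. In 3 genes a probe passed the p threshold towards Cy5 and another probe was measured. The measured probes of Dnajb9, Hsp90aa1 and Hsp90b1 had a dye part of 0.05, at most 0.04 and 0.30. The probes that passed had 2.27, 2.33 and 1.57, and their Cy3 signals were not above background. Passing the threshold towards a dye already takes probes with a large dye part. The gap was thus to be expected from the selection and does not tell gene from probe.

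**Figure D4:**
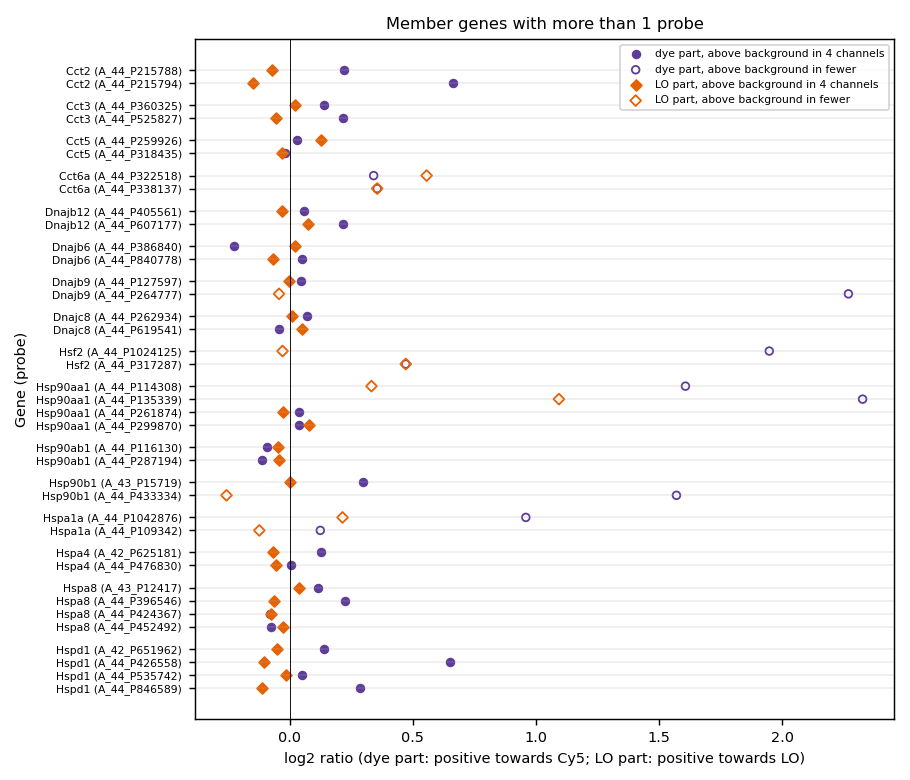
LO part (orange diamonds) and dye part (purple circles), as log2 ratios, of each probe of the 16 member genes with more than 1 probe; filled symbols were above background in all 4 channels and open symbols in fewer. The LO part of the filled symbols stays within 0.16 of 0 and their dye part within 0.66, while the dye part of open symbols reaches 2.33 in Hsp90aa1.

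A selection by the fold limits of the methods, a Cy5/Cy3 ratio of 1.5 or more where the pool was in Cy5 and of 0.75 or less where it was in Cy3, whatever the p, took 1 of the 91 features of these genes up and 0 down, where 0.835% and 1.09% of all features passed. The feature is that of Dnajc27, a DnaJ protein with a Rab-like domain. It gave 22.4 and 22.6 for the LO pool and 13.1 and 14.7 for the control pool, none of them above background, and the spot p was 0.594 and 0.662. No fold is given, since both pools were dim on both arrays.

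Other genes of protein folding were set beside the chaperones from a list of 41 cochaperones, folding enzymes and genes of the unfolded protein response, of which 25 were paired with 29 probes. Of these, 26 probes were measured, with a median LO part of -0.04, and 0 passed 1.5-fold. The LO part was above 0 in 7 (26.9%) and below in 19, against 48.7% above for all measured probes. The ratio pointed to the LO pool on both arrays in 1 (3.85%) and to the control pool in 5 (19.2%). Of all measured probes, 11.7% and 12.7% did. By the spot p on each array 0 were selected towards either pool. The lowest was Canx (calnexin), a lectin chaperone of the ER, which gave 157 and 110 for the LO pool and 148 and 190 for the control pool, a mean ratio of 0.787 with opposite directions on the arrays. Ddit3 (CHOP), a target of ER stress, had a mean of 0.974 and Atf4, which acts above it, 0.946. Bag3, an exchange factor induced by heat shock factor, had 0.966, and Stip1 (Hop), which joins Hsp70 to Hsp90, had the highest mean, 1.07. For Hyou1, an ER exchange factor, 1 of 2 probes passed the threshold towards Cy5, with a dye part of 0.86, and the other had a dye part of 0.14.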

How the data were processed

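RNA from the whole blood of rats was combined by group (LO and control) and hybridised to 2 arrays of 1 slide (Agilent whole rat genome, design build rn4), a technical dye swap. The authors extracted the signals with Agilent Feature Extraction 11.0.1.1, which subtracted the background and normalized the dyes by LOWESS. The deposited output gives intensity by channel, Cy5 over Cy3 as a log10 ratio, an error model p-value (the spot p) and quality flags. The deposited value table, with no scale stated, equalled the log10 ratio of the processed signals within 5e-07. The main results use the log ratio of the software output, which the software set to 0 in 6392 features on array 1 and 5726 on array 2. Each ratio was expressed as LO over control in log2 units. Control spots and the 338 features flagged as non-uniform or population outliers on either array (5 of 91 member features) were left out. Spots of 1 probe were averaged for ratios and signals, with the median taken for p. A probe was above background in a channel when every spot kept was. Where 1 pool was dim on both arrays, a limit was computed after Aquantile normalization, with a floor at the lowest signal rated above background. Symbols came from a GRCr8 RefSeq table through unversioned accessions (10767 of 41009 probes matched), and no coordinates of probes are given. Hspbap1 and Hspbp1, which bind heat shock proteins, were not counted. The members and lists were chosen with earlier results of these data known. Named were probes past the p threshold or the fold limits, the 6 highest and 6 lowest LO parts, the 4 largest dye parts towards each dye, genes with several probes, probes on 10 spots and a set of well-known members. Other members and folding genes named were chosen after their values were seen. The selection by p was tested on simulated data. Alternatives covered thresholds, dim and flagged probes, spots, scaling (median centring, normexp with an offset of 50 and loess), source, each array alone and counting by gene. The background correction used median signals. Python 3.11.15, pandas 2.3.3, R 4.3.3 and limma 3.58.1 were used.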

Additional observations from a re-analysis of the deposited data

How the results depend on the processing

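At a p under 0.05 on each array, the loosest threshold used, 0 member probes came out up and 0 down. Stricter thresholds, Benjamini-Hochberg adjustment and leaving out dim probes can only take probes away, so they gave 0 by construction. With flagged features kept, from the value table and by gene, 0 and 0 were found again. For the measured probes the value table holds nearly the same ratios, so it is hardly a separate check. With 1 array alone, 1 to 5 probes were up and 0 to 6 down, the LO part passed 1.5-fold in 0 to 4 measured probes, its median was -0.057 to 0.042 and its SD 0.20 to 0.29. The median LO part moved by less than the gap between the arrays in all settings. It was -0.081 with median centring, which moved the median of all measured probes to -0.072, and 0.0042 by normexp with loess. The 5 probes towards Cy5 became 0 at a p under 0.001, 0 after Benjamini-Hochberg adjustment, 0 with only measured probes, by construction, and 2 by gene. The 3 measured probes with a dye part over 1.5-fold became 7 with median centring, 0 by normexp with loess, 1 by gene, and 10 when 1 channel on each array sufficed, where 1 probe (Hsp90aa1) passed 1.5-fold in the LO part. At a limit of 1.2-fold, 1 probe passed in the LO part and 7 in the dye part, and at 2-fold 0 in the dye part. The SD of the LO part was 0.11 by gene, 0.062 by normexp with loess, 0.21 with 1 channel sufficing and 0.11 without genes with more than 10 named pseudogenes, an alternative chosen after seeing the data. The SD of the dye part was 0.22 by gene, 0.31 with median centring, 0.13 by normexp with loess and 0.64 with 1 channel sufficing. The causes were not tested. Of the 49 measured probes, 14 moved by more than the SD of the 2 arrays with median centring and 6 by normexp with loess, where the range was 0.905- to 1.16-fold. The sign of the LO part was opposite to that of the main results in 12 probes with median centring. By normexp with loess it was opposite in 9. No paired analysis was possible because both arrays carry the same 2 pools, whose ratio is already taken within each array, and no other pairs exist. Signals near background limit the 24 probes that were not measured.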
